A study of Mus musculus with 3 samples.

Results

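Of the CCCGGG sites measured in ID8 cells, 18491 were both sparsely read and alone in their neighbourhood, and these sites were used to look for long domains of lower DNA methylation. They were chosen on chromosomes 1 to 19 as sites with at least 10 reads summed over 3 libraries, under 10 reads in at least 1 library and no other listed site within 500 bp, and are called sparse sites below. They were 10.7% of the 173449 listed sites, 39.8% of the 46411 sites with at least 10 summed reads and 15.8% of the 116728 isolated autosomal sites. The methylation level was not used to choose them, but the number of reads was, and the level differed with reads. The 59542 isolated autosomal sites with 1 to 9 summed reads averaged 56.2%, against 69.6% at the sparse sites.

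ID8 is an ovarian cancer cell line of the mouse strain C57BL/6, labelled as female ovarian surface epithelial cells, and all 3 libraries are of untreated cells grown in RPMI medium with fetal bovine serum and gentamicin. There is 1 group, with no normal ovarian tissue and no other line to set it against, and the libraries are called independent without separate cultures being named. Cell identity could not be checked against marker genes because DNA methylation alone was measured and the tables name no gene. The assay, digital restriction enzyme analysis of methylation (DREAM), cuts CCCGGG with SmaI, which methylation of the inner CpG blocks, and then with XmaI, which it does not block, so the ends of a fragment tell whether each site was methylated.

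Most CpG sites of mammalian DNA that lie outside CpG islands are methylated, while the CpG-dense islands at many promoters are not. In many tumours and cultured cells the methylation of the CpG-poor genome is lost in long blocks, often in gene-poor, late-replicating DNA, which are known as partially methylated domains. Sites apart from any other listed CCCGGG were therefore used to look for such domains. The CpG density, genes and replication timing around the sites were not measured. The recognition sequence is the same at every site, and no genome of the build named in the site identifiers (mm9) was used here, so the flanking sequence of the sites is not shown.

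The libraries held 7689526, 9190335 and 10361138 reads in replicates 1, 2 and 3, of which the sparse sites took 1.24%, 1.26% and 1.09%. A sparse site had a median of 15 summed reads and at most 107, and the median in each library was 5 reads. In 13336 sparse sites no library reached 10 reads, and in 5155 at least 1 did. No read was counted at 343, 162 and 125 sparse sites in replicates 1, 2 and 3. At 10 reads the level of a single site is loosely known: 5 methylated reads of 10 give an exact Clopper-Pearson interval of 18.7% to 81.3%, and 0 of 10 gives an upper bound of 30.8%. Groups of sites, not single sites, therefore carry the results.

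The sparse sites were mostly methylated. Their level averaged 69.3% in replicate 1, 70.1% in replicate 2 and 69.5% in replicate 3, or 69.6% ± 0.375 (SD, n = 3), with a median of 90.9% from the summed counts. High levels, of 70% or more, were found at 12051 sites (65.2%), low levels, under 10%, at 2911 (15.7%) and partial levels in between at 3529 (19.1%). No unmethylated read was seen at 7240 sites and no methylated read at 2302. The partial class is the least certain of the 3 classes, because the exact 95% interval lay wholly between 10% and 70% at only 559 of its 3529 sites and reached 70% or more at 1715. By the authors' adjusted percent the mean was 73.8%, with 70.2% of the sites high, 13.4% low and 16.4% partial. Just inside the limits of the rule, sites with 10 summed reads averaged 62.9%, against 61.7% at isolated sites with 9 summed reads just outside it. Sites with 9 reads in their lowest library averaged 72.1%, against 73.8% at those with 10, and the 51 sparse sites up to 25 bp over the spacing limit averaged 36.5%, against 41.2% at the 56 sparsely read sites up to 25 bp under it.

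**Figure D1:**
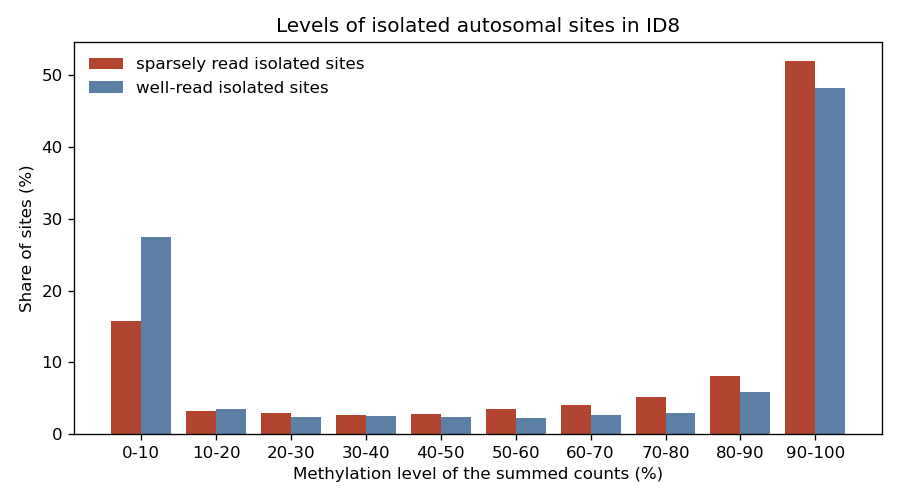
Share of sites (vertical axis, %) in 10 classes of methylation level (horizontal axis, %), for the 18491 sparse sites (left bars) and the 5817 well-read isolated sites (right bars). Both kinds of site gathered at the ends: 15.7% of the sparse sites and 27.4% of the well-read sites were under 10%, and 52.0% and 48.2% were at 90% or more.

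The sparse sites were compared with the 5817 well-read isolated autosomal sites, which had at least 10 reads in every library and a median of 96 summed reads. The sparse sites were more methylated over all distances, but less methylated wherever the nearest listed site was over 1 kb away. Over all distances the sparse sites averaged 69.6% and the well-read sites 60.95% from the summed counts. Differences in this comparison are means over the libraries, which came to 8.68 points ± 0.133 (SD, n = 3) over all distances. Well-read sites lie close to a neighbour in most cases: 4338 of the 5817 had one at 0.5 to 1 kb, against 3213 of the 18491 sparse sites. At that distance the sparse sites averaged 56.2% and the well-read sites 49.4%, a difference of 6.88 points ± 0.218. At 2 to 5 kb the sparse sites averaged 74.0% and the well-read sites 96.7%, a difference of -22.7 points ± 0.678, and over 10 kb the levels were 76.9% and 97.3%, a difference of -20.3 points ± 0.784. The difference was -19.9 points ± 0.252 at 1 to 2 kb and -20.0 ± 0.726 at 5 to 10 kb. Each of these differences had the same sign in 3 of 3 libraries, and flipping the signs of the library values in the exact two-sided test gave p = 0.25 for each, the smallest p that 3 libraries allow. Reads were not matched, and every well-read site had at least 30 summed reads. Sparse sites with 30 or more reads averaged 50.9% at 0.5 to 1 kb, 93.9% at 2 to 5 kb and 96.4% over 10 kb. These levels were much closer to those of the well-read sites. At 1 to 2 kb such sparse sites still lay lower, at 66.3% against 82.8%. The part of reads in the differences was not tested.

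The level of the sparse sites differed with the distance to the nearest listed site. Sparse sites with a neighbour at 0.5 to 1 kb averaged 56.0%, 56.3% and 56.5% in replicates 1, 2 and 3, those with none within 5 kb averaged 77.0%, 77.8% and 76.6%, and the near sites lay at a difference of -20.9 points ± 0.658 (SD, n = 3; exact sign-flip p = 0.25). The levels of the near and the far sites did not overlap between libraries. At 1 to 2 kb the level was 62.8%, at 2 to 5 kb 74.0%, at 5 to 10 kb 77.1% and over 10 kb 76.9%, so the last 2 classes differed by less than the SD of 0.897 points between libraries at 5 to 10 kb. The 3487 autosomal sites that were sparsely read but had a neighbour within 500 bp averaged 43.3%, and the sparse sites lay 26.3 points ± 0.248 above them, in 3 of 3 libraries (exact sign-flip p = 0.25).

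The number of listed sites over a wider stretch moved the level less. With 1 to 4 listed sites within 50 kb on either side, the site itself included, the 1738 sparse sites averaged 68.7%. With 5 to 9 sites they averaged 71.3%, with 10 to 19 sites 69.2% and with 20 or more sites 68.0%. By the mean, the stretches with the fewest listed sites were thus not the least methylated, and the classes differed less than the classes of distance to the nearest site. By the share of low sites they were, at 16.7%, against 15.2%, 15.7% and 16.3% in the other classes. These classes were not split by distance to the nearest site or by reads, so they do not settle whether site-poor stretches are less methylated at a given distance. Along the chromosomes, sparse sites in the first 10 Mb of listed sites averaged 67.5%, those in the last 10 Mb 68.9% and those between 69.8%.

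A sparse site also resembled its nearest listed site when that site was close. Among sparse sites with a neighbour at 0.5 to 1 kb, those whose neighbour was low averaged 39.1%, those whose neighbour was partial 52.7% and those whose neighbour was high 66.6%. The share of low sites was 44.0% next to a low neighbour and 16.1% next to a high one. At 1 to 2 kb the levels were 50.9% next to a low, 59.8% next to a partial and 65.7% next to a high neighbour. From 2 to 5 kb they were 71.9%, 70.02% and 75.1%, so most of the likeness was gone within that distance. A small gap between low and high neighbours remained farther out. At 5 to 10 kb the levels were 74.6% next to a low, 68.1% next to a partial and 79.3% next to a high neighbour. Over 10 kb they were 76.8%, 77.2% and 80.7%. Close neighbours can be the 2 ends of the same fragments, so a shared fragment and a shared state of the DNA cannot be told apart at the shortest distances.

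Among sparse sites far from any other site the level climbed with the number of reads. Over 5 kb from a listed site, the 3805 sites with 10 to 14 summed reads averaged 67.6% ± 0.704 (SD, n = 3), the 1379 with 15 to 19 reads 83.9% ± 0.323, the 1201 with 20 to 29 reads 91.2% ± 0.600 and the 474 with 30 or more reads 96.4% ± 0.427. The classes did not overlap between libraries: the values in replicates 1, 2 and 3 were 67.4%, 68.4% and 67.0% in the first class and 96.2%, 96.9% and 96.1% in the last. The last class exceeded the first by 28.8 points ± 0.280 in 3 of 3 libraries (exact sign-flip p = 0.25). Low sites made up 16.9% of the first class (644 sites) and none of the last, in which 470 of 474 sites were high. By the authors' adjusted percent the same classes averaged 71.9%, 87.5%, 93.9% and 98.0%.

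Nearer to other sites the climb was smaller, and at the shortest distance the level was lower with more reads. At 2 to 5 kb from a neighbour, the 4 classes of reads averaged 66.8%, 77.2%, 88.1% and 94.0%. At 1 to 2 kb they averaged 63.0%, 62.5%, 62.0% and 66.4%, and the last class exceeded the first by 3.33 points ± 0.224 in 3 of 3 libraries (exact sign-flip p = 0.25). At 0.5 to 1 kb they averaged 58.7%, 57.8%, 58.0% and 50.9%, so that the last class lay 7.80 points ± 0.380 below the first, a signed difference of -7.80 (exact sign-flip p = 0.25). The gap between near and far sites was wider among the better read of the sparse sites. With at least 20 summed reads the difference between sites with a neighbour at 0.5 to 1 kb and sites with none within 5 kb was -37.7 points, against -20.8 from the summed counts of all of them.

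**Figure D2:**
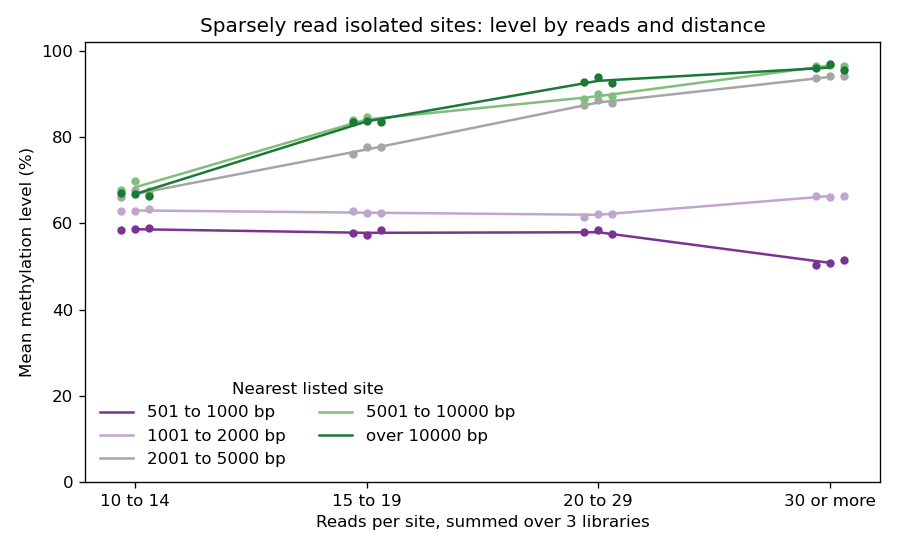
Mean methylation level of the sparse sites (vertical axis, %) against their reads summed over the libraries (horizontal axis, 4 classes), with 1 line for each class of distance to the nearest listed site; points are the 3 libraries and lines their mean. From 10 to 14 reads to 30 or more, the mean over 10 kb from a neighbour climbed between 66.8% and 96.1%, while at 0.5 to 1 kb it was 58.7% in the first class and 50.9% in the last.

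Large windows were then compared to look for domains. The autosomes were divided into windows of 5 Mb, and the 409 windows with at least 10 sparse sites (median 34) held 17992 of them. Each window's level in a library was set against that library's mean over all sparse sites with limma, with Benjamini-Hochberg adjustment over the windows. Windows were called when the adjusted p was under 0.05 and the level lay 10 points or more from the mean. Window levels ranged from 33.0% to 95.5% with a median of 70.8%, and 51 windows (12.5%) were called lower and 77 (18.8%) higher, 31.3% in all. The test measures the spread between libraries that read the same sites, and not the spread between sites, so a call says that a window's own sites differed from the mean and not that its other DNA did.

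Set against the spread over sites, the differences between windows were modest. The SD of the window levels was 10.0 points, and the spread of sites within windows alone gives 7.07 points. The part of the variance that lay between windows corresponded to an SD of 6.46 points, against 37.0 points within windows, or 2.96% of the total. The libraries gave 6.61, 6.34 and 6.47 points. The SD within windows includes the counting error of sites with few reads, which makes the share of 2.96% smaller. Without the low sites the SD between windows was 3.98 points, over 391 windows. With at least 20 summed reads it was 3.87 points, over the 205 windows that still had enough sites, so the sets of windows differ. Adjacent windows of 5 Mb were weakly alike (Pearson's r = 0.14, Spearman's rho = 0.14 over 342 pairs, as a description of windows that share libraries), and so were sparse and well-read isolated sites of the same window (r = 0.14, rho = 0.12 over the 328 windows with at least 5 well-read sites). The replicates, which read the same sites, had r between 0.91 and 0.93 over the 409 windows.

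**Figure D3:**
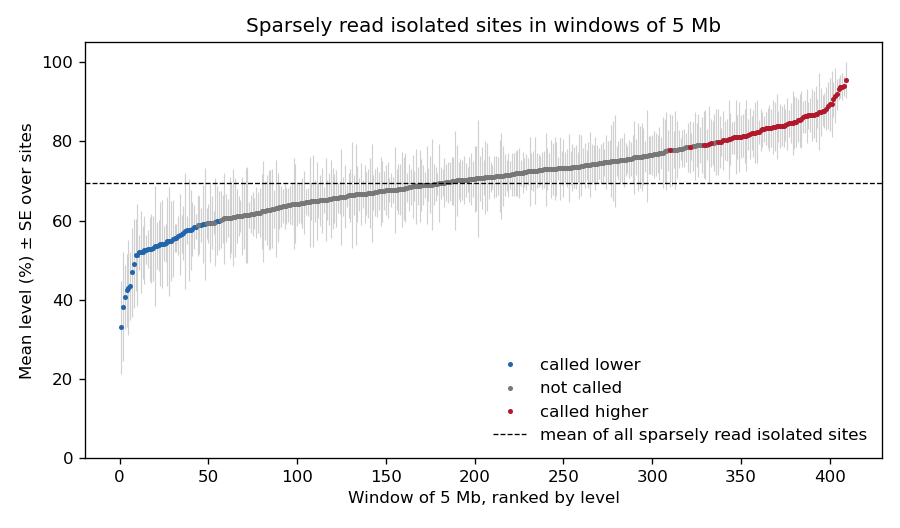
Mean methylation level of the sparse sites in each of 409 windows of 5 Mb (vertical axis, %), ranked by level (horizontal axis); error bars are the SE over the sites of a window, colours give the limma call and the dashed line is the mean of all sparse sites. Levels ran without a step from 33.0% to 95.5%, with 51 windows called lower and 77 higher.

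The 5 lowest windows held few sites and mixed low with high ones. On chromosome 7 from 10 to 15 Mb (mm9), 12 sparse sites averaged 39.9%, 26.9% and 20.2% in replicates 1, 2 and 3, or -40.4 points ± 2.72 (SE) against all sparse sites (limma adjusted p = 2.71e-19), with an SE over sites of 11.8 points. Of the 12, 6 were low, 3 partial and 3 high. The low sites lay 621, 621, 2308, 570, 901 and 630 bp from their nearest listed site. The high sites lay 4657, 2531 and 4253 bp from theirs. With the means of classes of distance and reads subtracted, the window's difference was -36.6 points. The deepest of them, at 12602213, had 0 methylated reads of 25 (exact interval 0% to 13.7%), and the site at 13552346 had 0 of 18 (0% to 18.5%). About 5 kb from the second of these, the site at 13557500 was methylated in 19 of 20 reads (75.1% to 99.9%). Low and high sites thus stood close together in this window.

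The next lowest window, on chromosome 5 from 5 to 10 Mb, had 10 sparse sites at 34.0%, 49.2% and 39.1% in the 3 libraries, of which 3 were high. On chromosome 11 from 15 to 20 Mb, 28 sites were at 35.8%, 40.01% and 39.8%, with 13 low, 6 partial and 9 high. The 23 sites on chromosome 2 from 175 to 180 Mb were at 43.8%, 38.1% and 44.2%, and the 14 on chromosome 8 from 15 to 20 Mb at 46.9%, 42.1% and 41.7%. Each of the 5 windows lay below the mean of all sparse sites in every library, and each held at least 3 high sites.

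The 5 highest windows were nearly free of low sites. On chromosome 17 from 60 to 65 Mb, the 20 sparse sites averaged 94.7%, 96.1% and 95% in the 3 libraries, 25.6 points ± 1.93 (SE) above all sparse sites (limma adjusted p = 2.17e-17), and 19 of them had no unmethylated read. The exception, at 63314290, was methylated in 1 of 11 reads. The window that starts at 5 Mb on chromosome 3 averaged 94.05% from the summed counts, with 17 of 18 sites high. The windows that start at 15 Mb on chromosome 2 and at 20 Mb on chromosome 12 averaged 93.8% each, and that at 45 Mb on chromosome 14 averaged 93.2%. None of these 4 windows held a low site.

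As groups, windows called lower and higher differed in all classes of site. In the 51 windows called lower, 26.4% of the sparse sites were low, 25.7% partial and 47.9% high, and in the 77 called higher 6.15%, 11.1% and 82.7%. These shares follow from the calls and are a description. The lower windows were spread over 19 chromosomes and the higher windows over 16. The median number of listed sites was 290 in the lower and 286 in the higher windows, against 326 in all 409 windows. The median number of sparse sites was 24 and 23, against 34 in all, so both groups of called windows held fewer sites. The share of sparse sites with 10 to 14 reads was 49.2% in the lower and 48.4% in the higher windows, against 48.1% in all. Sparse sites within 2 kb of a listed site made up 40.5% of those in the lower and 32.6% of those in the higher windows, against 39.4% in all. Over the 409 windows the level and this share had r = -0.28 and rho = -0.27, as a description. The median level of well-read isolated sites was 59.9% in 38 lower and 66.8% in 50 higher windows with at least 5 of them. Over 5 kb from a listed site, sparse sites with 10 to 14 reads averaged 47.9% in the lower and 83.3% in the higher windows, those with 15 to 19 reads 69.4% and 90.1%, those with 20 to 29 reads 83.1% and 96.1%, and those with 30 or more reads 95.7% and 98.1%. These sites took part in the calls, and with 30 or more reads the level was near its upper limit in all windows, at 96.5%, so the gaps are a description too. The last class had 27 sites in the lower and 74 in the higher windows.

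No window of 5 Mb was made up mainly of partial sites. The partial share had a median of 17.6% and was at most 41.7% in any of the 409 windows. Every window held at least 1 high site, and 16 held no low site. The median level of the sites was under 70% in 36 windows, of which 32 were called lower.

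At 1 Mb, 1227 of 2417 windows had at least 5 sparse sites (median 11), and limma called 268 (21.8%) lower and 332 (27.1%) higher by the same limits, 48.9% in all. The SD of the levels was 14.7 points, with 11.5 points given by the spread of sites within windows, and adjacent windows had r = 0.19 and rho = 0.18 over 898 pairs. The part of the variance between windows of 1 Mb corresponded to an SD of 8.52 points, or 5.18% of the total. By the level from the summed counts, which differs from the mean over libraries used for the calls, 260 windows (21.2%) lay at least 10 points under the mean of all sparse sites. They formed 38 runs of 2 or more adjacent windows, 11 of them with 3 or more, and the longest spanned 4 Mb. A run ended at any window with too few sites, so these lengths hold only for adjacent windows that could be measured.

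The 3 longest runs each held many high sites. On chromosome 4 from 152 to 156 Mb, 87 sparse sites averaged 51.8%, 49.96% and 51.3% in replicates 1, 2 and 3, with 23 low, 25 partial and 39 high. On chromosome 2 from 171 to 175 Mb, 64 sites averaged 53.8%, 50.4% and 53.8%, and on chromosome 13 from 55 to 59 Mb, 68 sites averaged 57.2%, 56.1% and 56.1%. The well-read isolated sites of the same runs averaged 38.3% (23 sites), 67.0% (22 sites) and 44.8% (23 sites), so they lay above the sparse sites on chromosome 2 and below them on chromosomes 4 and 13. All well-read isolated sites averaged 60.95%. Those of the runs thus lay below their own mean on chromosomes 4 and 13 and above it on chromosome 2. Among windows of 5 Mb, the longest run lay on chromosome 15 from 80 to 95 Mb, where 336 sparse sites averaged 57.2%, 58.1% and 57.1% in the 3 libraries, with 70 low, 100 partial and 166 high.

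The longest stretch of consecutive sparse sites that were all under 70% was also on chromosome 15, from 12969608 to 21892446, and spanned 8923 kb. It was singled out for its length after the values were seen. The stretch held 205 listed isolated sites, of which only 14 were sparse sites and 4 well read. The 14 sparse sites had 10 to 16 reads each, and 10 of them lay over 5 kb from any listed site. Of their 170 reads, 24 were methylated (14.1%), or 16.7%, 16.4% and 9.09% in replicates 1, 2 and 3, and 9 sites were low and 5 partial. The better read isolated sites inside the stretch were not all of the same kind. The site at 13975454 was methylated in 63 of 64 reads and that at 15019181 in 41 of 41, while the pair at 16624236 and 16624801 was methylated in 193 of 740 and 32 of 751 reads. The stretch was thus not unmethylated throughout. Of all 3743 stretches under 70%, 2301 were a single site and 150 held 5 or more.

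Pairs of sparse sites showed how far likeness in level reached. Sites 0.5 to 1 kb apart differed by 32.9 points on average, those 1 to 2 kb apart by 37.2 points and those 2 to 5 kb apart by 37.6 points. Sites 5 to 10 kb apart differed by 35.0 points, those 10 to 50 kb apart by 36.1 points, those 100 to 500 kb apart by 38.4 points and those 1 to 5 Mb apart by 39.9 points. Any pair of sparse sites, whatever the chromosomes, differed by 39.2 points. Pairs up to 500 kb apart were thus slightly more alike than any pair, without a steady order below 50 kb, and pairs over 0.5 Mb apart were not. Among sites over 2 kb from any listed site the difference was 30.1 points at 10 to 50 kb and 35.3 points at 1 to 5 Mb. The mean is a description, since a site enters many pairs.

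**Figure D4:**
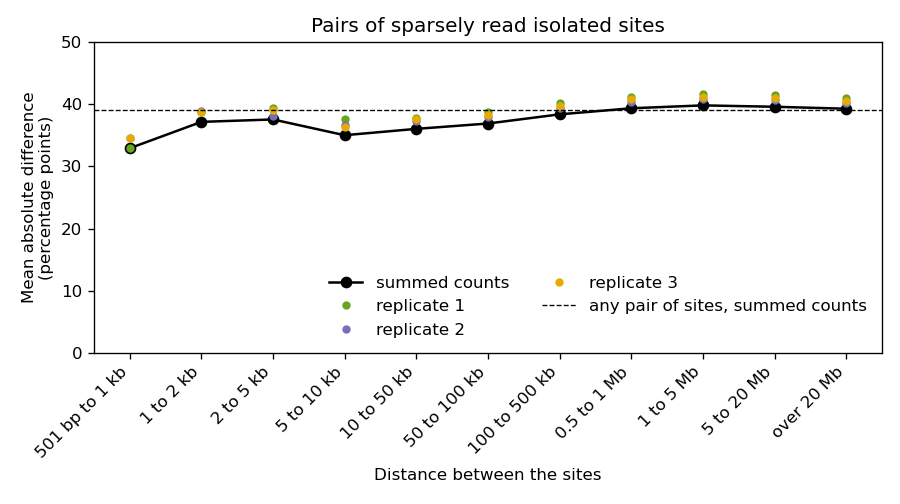
Mean absolute difference in methylation level between 2 sparse sites of the same chromosome (vertical axis, percentage points) against their distance (horizontal axis, 11 classes), from the summed counts (line) and in each library (points); the dashed line is the mean over all pairs of sparse sites. The difference was 32.9 points at 0.5 to 1 kb, 37.6 at 2 to 5 kb, 36.1 at 10 to 50 kb and 39.9 at 1 to 5 Mb, against 39.2 for any pair.

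Chromosomes differed less than windows, and chromosomes 19, 15 and 11 were lowest. In the same limma fit over 19 autosomes, with a minimum difference of 2 points, 3 (15.8%) were called lower and 6 (31.6%) higher, 47.4% in all. Chromosome 19 was lowest, with 1015 sparse sites at 63.9%, 65.3% and 64.8% in replicates 1, 2 and 3, or -4.99 points ± 0.295 (SE). Chromosome 15 lay at -4.60 points ± 0.261 and chromosome 11 at -3.12 points ± 0.229. Chromosome 3 was highest, with 721 sites at 76.8%, 76.5% and 76.5%, or 6.97 points ± 0.349, followed by chromosomes 16, 10, 17, 13 and 12. Chromosomes 19 and 3 did not overlap in any library, and the SE over sites was 1.20 points on chromosome 19 and 1.29 on chromosome 3.

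The chromosome order moved with the share of listed isolated sites that were sparse sites. Sparse sites made up 31.4% of the listed isolated sites of chromosome 19, 25.8% on chromosome 15 and 23.1% on chromosome 11, against 11.8% on chromosome 3 and 11.0% on chromosome 16. Across the 19 autosomes the level and this share had r = -0.77 and rho = -0.70, as a description of chromosomes that share libraries and depth; its part in the order was not tested. With the means of classes of distance and reads subtracted, 4 chromosomes were called lower and 6 higher.

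Among the far and better read sparse sites methylation was high on nearly every chromosome, and chromosome 19 was the lowest. The 1675 sparse sites over 5 kb from a listed site with at least 20 summed reads averaged 92.7%, and 1572 were high, 87 partial and 16 low. On chromosome 19 the 122 such sites averaged 79.9%, 80.6% and 80.9% in the 3 libraries, with 92 high and 6 low. The next lowest was chromosome 15, with 101 sites at 89.1%, 90.6% and 86.6%, and the highest was chromosome 12, where all 65 sites were high. Every library had chromosome 19 below each of the other 18 autosomes. Chromosomes 19 and 15 also had the largest shares of listed isolated sites that were sparse sites, 31.4% and 25.8%. The cut of 20 reads was the same on every chromosome, and the part of this share in the order was not tested.

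Of the 121 windows of 5 Mb with at least 5 of these sites, 89 averaged 90% or more and 1 was under 70%. That window lay on chromosome 19 from 40 to 45 Mb, where 13 sites averaged 49.8%, 55.3% and 53.1% in the 3 libraries and 5 were high. The other 5 of the lowest 6 were at 72.3% to 77.9% and lay on chromosomes 9, 15 and 19. This selection by reads and distance was made after the values were seen and has no test. It kept 1675 of the 6859 sparse sites over 5 kb from a listed site. At that distance sites with 10 to 14 reads averaged 67.6%, so the cut on reads favours methylated sites. High windows among the kept sites therefore do not show that domains of lower methylation are absent.

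**Figure D5:**
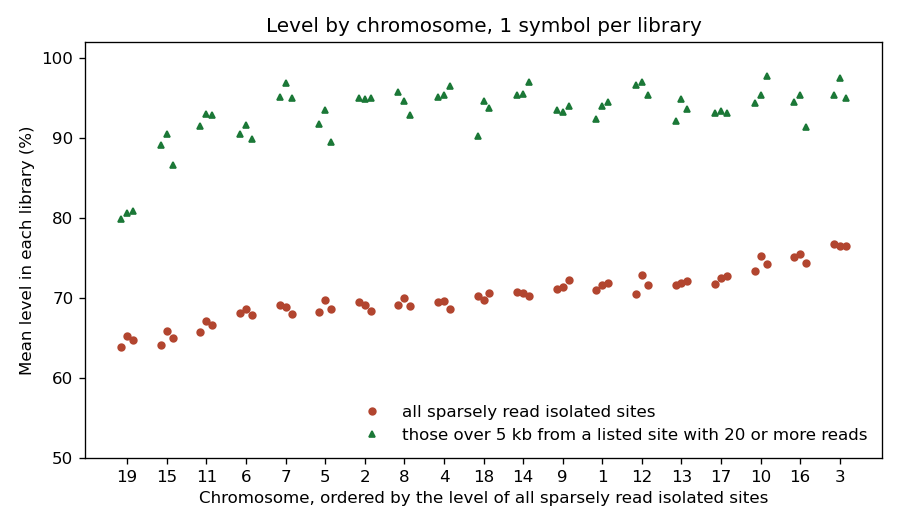
Mean methylation level in each library (vertical axis, %, starting at 50%) on the 19 autosomes (horizontal axis, ordered by level), for all sparse sites (circles) and for those over 5 kb from a listed site with 20 or more reads (triangles). The circles run between 63.9% on chromosome 19 and 76.8% on chromosome 3, and the triangles of chromosome 19, at 79.9% to 80.9%, lie under those of every other chromosome.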

How the data were processed

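Per the file headers and values, the authors deposited for each library the raw counts of methylated, unmethylated and total reads at every listed site, and a table of the 3 libraries summed. The raw percent that the authors deposited is the methylated share, and their adjusted percent multiplies the odds by 1 factor per table. Bowtie2, SAMtools and the builds mm9 and rn4 are named in the submitters' processing notes; the sources used here give neither their versions nor the handling of duplicate reads. Intervals and limits therefore cover counting error only.

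Levels were computed from the counts per site and averaged with equal weight; library values used sites with at least 1 read there. Windows and chromosomes were fitted with limma 3.58.1 in R 4.3.3, weighted by sites read. Named windows were the 5 lowest and 5 highest at 5 Mb, the 3 longest low runs at 1 Mb and the lowest and highest chromosome. Members, windows and classes were chosen with earlier results of these data known; classes of reads were chosen after the values were seen. The p-values measure only the spread between these libraries, which may be technical. Minimum reads, weighting, spacing, window edges and minimum sites were varied, and each replicate was left out.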

Additional observations from a re-analysis of the deposited data

Results flagged for a closer look

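Reads were also counted at isolated autosomal sites below the minimum of 10 summed reads. Their mean level was set beside that of the sparse sites at the start. Apart from the sites with 9 reads, they enter none of the other comparisons. These 59542 sites, 51.0% of the listed isolated autosomal sites, held 248523 reads, of which 57.1% were methylated (56.4%, 58.1% and 56.7% in replicates 1, 2 and 3). With no control sample, the level that a count of 0 allows is 0.00121% of these reads. Sites with 1 read were methylated in 54.2% of cases, those with 2 to 4 reads averaged 55.5% and those with 5 to 9 reads 57.6%, below the 65.7% of the sparse sites with 10 to 14 reads. Over 5 kb from a listed site the same classes averaged 54.4%, 54.3% and 56.7%, against 67.6% with 10 to 14 reads.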

How the results depend on the processing

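The difference between sparse and well-read isolated sites was 8.63 points from the summed counts. It reversed to -22.6 points with a spacing limit of 1 kb, was 31.3 points with sites weighted by reads, where 1 well-read site held 240822 of 1461356 reads, and lay between 8.55 and 8.67 points without each replicate. The mean level of the sparse sites was 73.6% with at least 20 summed reads, 73.8% by the adjusted percent, 70.8% weighted by reads, 68.2% with under 10 reads in every library and 72.4% with a spacing limit of 1 kb. The SD between windows, 6.46 points, was 3.87 with at least 20 summed reads, 3.98 without sites under 10%, 5.93 by the adjusted percent, 6.76 with under 10 reads in every library, 7.0 with a spacing limit of 1 kb and 6.30 with classes of distance and reads subtracted, a setting added after the values were seen. Windows of 5 Mb called lower and higher numbered 25 and 30 of 205 with at least 20 summed reads, 25 and 28 of 391 without sites under 10%, and 29 and 45 of 300 with a higher minimum of sites per window. At 1 Mb they numbered 101 and 96 of 412, 159 and 200 of 1120, and 133 and 148 of 694 under the same settings. The other counts of calls stayed within 1.5 times, and the named windows stayed past the threshold where they had enough sites, in places with much smaller differences. Without sites under 10%, the difference was -11.3 points on chromosome 11 (-31.1 with them) and 11.5 to 12.1 points in the higher windows on chromosomes 2, 3, 12 and 14 (24.2 to 24.8 with them). With a spacing limit of 1 kb it was -11.3 points in the lower window on chromosome 2 (-27.6 at 500 bp), and with classes of distance and reads subtracted 15.8 points on chromosome 17 (25.6 before). Named windows had no value with at least 20 summed reads or with shifted edges, and those on chromosomes 5, 7 and 8 none without sites under 10%. Those on chromosomes 5 and 7 also had none with a spacing limit of 1 kb. With under 10 reads in every library, those on chromosomes 5, 7 and 12 had none. With a higher minimum of sites, only those on chromosomes 11, 14 and 17 and the lower window on chromosome 2 had a value. No paired analysis was possible because there is 1 group. A median depth of 15 summed reads limits single sites, and windows rest on a median of 34 sites at 5 Mb and 11 at 1 Mb.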
